A study of Mus musculus with 9 samples.

Results

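Connexins are the proteins of gap junctions, and 7 genes of that family were followed here across 9 RNA-seq libraries of mouse substantia nigra, the midbrain region that holds the dopaminergic neurons. The members are Gja1, Gjb1, Gjb2, Gjb6, Gjc1, Gjc3 and Gjd2, taken by gene symbol from a deposited table of 20591 genes. The family was selected on measured values, the changes of Gjb6 and Gjb1 against the ad libitum group in earlier results of these data, while the other members were chosen by family and by the glia or neurons known to hold them. The differences of Gjb6 and Gjb1 from the ad libitum group are therefore descriptions, printed without a p. Calls of these genes and counts that include them are descriptions too. None of these is independent evidence of a response.

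The mice were wild type C57BL/6, all sham operated and 12 weeks old at entry, with 3 libraries to a group. The 1 week group was on intermittent fasting for 1 week and had 3 fasts, the 1 day group had 1 fast, and the ad libitum group had food throughout 1 week. Food was taken away for 24 hours at a time, starting 2 hours ahead of the dark phase, and cages of ad libitum mice were changed at matching times. Separate animals per library are not stated in the labels, so a p-value here covers only the spread of libraries within groups, which may be technical in part. The main edgeR fit estimated that spread from all 9 libraries together. RNA came from lysate of the whole region, in which fewer cells of a type and less RNA per cell cannot be told apart.

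Connexin subunits assemble into a hemichannel, and hemichannels of neighbouring cells dock into a channel that passes ions and small molecules. Astrocytes use the connexins of Gja1 (Cx43) and Gjb6 (Cx30), with Gjb2 (Cx26) also found in the meninges, to join into a network that spreads potassium, glutamate metabolites and glucose. Oligodendrocytes carry the products of Gjb1 (Cx32) and Gjc3 (Cx29), of which Cx32 forms channels within myelin. Gjd2 (Cx36) is the main connexin of electrical synapses between neurons, and Gjc1 (Cx45) is found in some neurons and in cells of the vessel wall.

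Promoter sequences are shown for the members on which the results turn, the neighbouring pair Gjb6 and Gjb2 and the oligodendrocyte pair Gjb1 and Gjc3. They are credited to RefSeq, build GRCm38.p6, and run 5′ to 3′ from 250 bases before to 50 bases after the annotated start of the gene. A window was at hand for 6 of the 7 members. Capitals mark matches on either strand to 4 motifs, the TATA box TATAAA, the CCAAT box CCAAT, the GC box GGGCGG and the half-site AGAACA of the glucocorticoid receptor, none of which overlapped another in these windows.
Gjb6 (chr14:57133562-57133861, minus strand): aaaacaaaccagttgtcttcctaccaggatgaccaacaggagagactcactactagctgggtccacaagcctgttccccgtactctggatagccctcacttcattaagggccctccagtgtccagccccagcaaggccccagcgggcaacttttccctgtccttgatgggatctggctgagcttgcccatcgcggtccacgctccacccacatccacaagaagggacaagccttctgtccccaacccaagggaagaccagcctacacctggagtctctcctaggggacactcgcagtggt
Gjb2 (chr14:57104653-57104952, minus strand): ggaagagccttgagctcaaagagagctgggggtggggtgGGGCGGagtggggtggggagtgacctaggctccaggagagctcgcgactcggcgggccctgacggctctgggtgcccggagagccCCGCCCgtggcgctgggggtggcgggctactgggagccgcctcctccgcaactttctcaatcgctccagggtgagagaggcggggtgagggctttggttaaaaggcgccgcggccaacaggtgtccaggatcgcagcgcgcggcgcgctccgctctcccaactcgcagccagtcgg
Gjb1, most upstream of its 4 starts (chrX:101376126-101376425, plus strand): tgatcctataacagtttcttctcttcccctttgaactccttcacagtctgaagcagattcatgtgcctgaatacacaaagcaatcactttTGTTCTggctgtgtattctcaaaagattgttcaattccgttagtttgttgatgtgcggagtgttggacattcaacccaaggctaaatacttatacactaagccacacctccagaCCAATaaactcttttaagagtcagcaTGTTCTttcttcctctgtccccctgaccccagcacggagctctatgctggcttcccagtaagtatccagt
Gjb1, most downstream of its 4 starts (chrX:101383482-101383781, plus strand): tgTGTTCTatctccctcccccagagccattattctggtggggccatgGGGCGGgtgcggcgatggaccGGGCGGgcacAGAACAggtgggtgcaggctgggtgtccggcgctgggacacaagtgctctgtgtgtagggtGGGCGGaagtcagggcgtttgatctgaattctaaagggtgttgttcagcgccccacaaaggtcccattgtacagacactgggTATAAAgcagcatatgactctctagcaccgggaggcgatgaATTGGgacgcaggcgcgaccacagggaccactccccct
Gjc3 (chr5:137963049-137963348, minus strand): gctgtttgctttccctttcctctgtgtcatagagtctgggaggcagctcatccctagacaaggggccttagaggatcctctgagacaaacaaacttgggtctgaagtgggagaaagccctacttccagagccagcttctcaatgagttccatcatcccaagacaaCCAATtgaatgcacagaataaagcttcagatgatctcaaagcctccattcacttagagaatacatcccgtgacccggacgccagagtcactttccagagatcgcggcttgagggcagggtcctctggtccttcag
The Gjb6 window held none of the 4 motifs and had a GC content of 57.3%. Its neighbour Gjb2 on chromosome 14, with 1 long non-coding RNA gene annotated between them, had 2 GC boxes and a GC content of 70.0%. The most downstream Gjb1 window had 3 GC boxes, 2 half-sites, 1 CCAAT box and 1 TATA box 29 bases before the start, and the most upstream had 2 half-sites and 1 CCAAT box. Of the 2 Gjb1 windows between them, not shown, 1 had a CCAAT box and no half-site, and the other had none of the 4 motifs. The Gjc3 window had 1 CCAAT box. Of all 32851 windows in the table, 13.6% held a TATA box, 37.4% a CCAAT box, 35.7% a GC box and 19.0% a half-site, so each of these matches is common, and no match says only that these letters are not in the window.

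Library totals ranged from 36109995 to 54248856 counts, and members had between 192 and 18586 counts per library. Replicate 2 of the 1 week group and replicate 2 of the 1 day group stood apart, with estimated quality weights of 0.507 and 0.213, against 0.972 to 1.93 in the other 7 libraries. Markers of dopaminergic neurons, led by Slc6a3 and Ddc, were present in every library, summing to 770.2 to 1325 CPM after 1 week, 467 to 1002 CPM after 1 day and 792 to 1050.0 CPM in the ad libitum libraries. CPM, the unit of level used throughout, is a count relative to the effective size of its library. Neighbouring tissue differed between libraries. Slc17a7 of cortical neurons was at 501 CPM in 1 week replicate 3 and at most 49.1 CPM elsewhere. The choroid plexus gene Ttr reached 335 CPM in replicate 3 of the ad libitum group, with at most 35.5 CPM elsewhere. In the 1 day libraries Slc17a7 was at 9.50, 5.06 and 4.31 CPM, below each ad libitum library (33.2, 48.25 and 49.1 CPM). Summed cortex neuron markers were at 35.3 to 55.2 CPM after 1 day, against 87.4 to 130.8 CPM. Endothelial sums (204 to 229 against 234 to 280 CPM) and microglia sums (179.5 to 201 against 248 to 273.5 CPM) were also lower without overlap. The other cell type sums overlapped. The part of tissue content in the 1 day differences was not tested.

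Levels were compared between members per kilobase of transcript, with lengths from GENCODE vM21. In the ad libitum group Gja1 was highest at 86.9 ± 3.64 CPM per kb (SD, n = 3). Gjc3 followed at 33.6 ± 3.68 CPM per kb, Gjb6 at 30.9 ± 4.94 CPM per kb and Gjb1 at 26.7 ± 3.18 CPM per kb, neighbours in this order whose ranges over libraries overlapped. Gjb2 at 6.95 ± 2.67 CPM per kb and Gjd2 at 4.51 ± 0.505 CPM per kb also overlapped, and Gjc1 was lowest at 2.81 ± 0.231 CPM per kb, below every Gjd2 library. In the 1 week group Gjb6 stood second at 53.1 ± 1.72 CPM per kb, with no library overlapping Gjc3 at 28.5 ± 2.99 CPM per kb, and Gjb1 was at 16.7 ± 1.94 CPM per kb. In the 1 day group the order of these was the same, with Gjb6 at 45.8 ± 3.47, Gjc3 at 32.8 ± 9.60 and Gjb1 at 16.9 ± 2.81 CPM per kb, and the ranges of Gjb6 and Gjc3 overlapped. The level of Gja1 depended on the length used, 3.182 kb for its longest principal transcript or 10.257 kb for the union of its exons. Over the union of all exons, an alternative to the longest principal transcript chosen after seeing the data, Gja1 was at 26.97 CPM per kb and Gjc3 at 30.9 CPM per kb in the ad libitum group, so that Gjc3 came first. Over that length Gjb6 came first in both fasted groups, at 41.8 CPM per kb against 30.7 for Gja1 after 1 week and at 36.0 against 33.5 after 1 day.

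**Figure D1:**
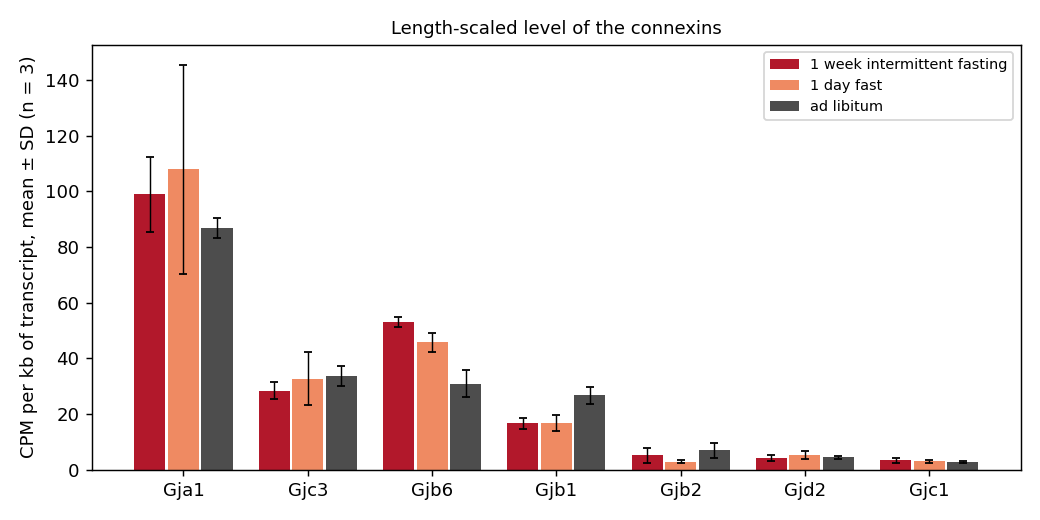
Length-scaled level of each connexin, as mean CPM per kb of transcript with SD of 3 libraries, in the 1 week group (red), the 1 day group (orange) and the ad libitum group (grey). Gja1 is the highest in each group on this length, and Gjb6 stands above Gjc3 in both fasted groups.

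Gjb6, the astrocyte connexin Cx30, was higher in every fasted library than in any ad libitum library. It was at 112, 115 and 108 CPM in the 1 week libraries, at 95.4, 104 and 89.6 CPM in the 1 day libraries, and at 53.9, 74.4 and 66.9 CPM in the ad libitum libraries, each in the order of replicates 1 to 3. The 3 groups did not overlap in pairs, and the 1 week libraries also lay above those of 1 day. The means were 112 ± 3.61 CPM after 1 week and 65.0 ± 10.4 CPM in the ad libitum group, a 1.72-fold difference (log2 fold change 0.78, SE 0.12). After 1 day the mean was 96.4 ± 7.31 CPM, 1.48-fold that of the ad libitum group (log2 fold change 0.57, SE 0.12). Without both libraries that stood apart these log2 fold changes were 0.77 and 0.51.

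Gja1, which encodes Cx43, the other main connexin of astrocytes, differed less. It was at 323, 352 and 269 CPM in the 1 week libraries, at 293, 480 and 257 CPM in the 1 day libraries and at 263, 282 and 284 CPM in the ad libitum libraries. The groups overlapped, and the highest value by far was that of 1 day replicate 2, a library that stood apart. The log2 fold change against the ad libitum group was 0.19 (SE 0.21) after 1 week and 0.31 (SE 0.21) after 1 day, and 0.11 and -0.01 without both libraries that stood apart. Within each library, Gjb6 had 34.6, 32.7 and 40.2 CPM for every 100 CPM of Gja1 in the 1 week group, 32.5, 21.7 and 34.8 in the 1 day group and 20.4, 26.4 and 23.5 in the ad libitum group, not scaled to length. This share was higher in all 1 week libraries than in any ad libitum library, while the 1 day group overlapped the ad libitum group through replicate 2.

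Gjb2, which encodes Cx26 and lies beside Gjb6, did not follow it. It was at 14.4, 5.24 and 18.0 CPM in the 1 week libraries, at 7.58, 7.51 and 5.95 CPM in the 1 day libraries and at 10.2, 16.9 and 23.0 CPM in the ad libitum libraries. The 1 day libraries all lay below the ad libitum libraries, and the 1 week libraries spread over both. The log2 fold change against the ad libitum group was -1.25 (SE 0.43) after 1 day and -0.41 (SE 0.42) after 1 week, the second at -0.04 without both libraries that stood apart. Markers of fibroblasts and meninges were also lower in the 1 day group, but not in the 1 week group. The summed level of all 11 markers, led by Igf2 and Col1a2 and none at 0, ranged from 130 to 523 CPM in the 1 week group, from 85.9 to 172 CPM in the 1 day group and from 120 to 325 CPM in the ad libitum group. After 1 day 11 of the 11 had a negative log2 fold change, with a median of -1.03, but 0 passed edgeR's test, 3 had an unadjusted p under 0.05 and DESeq2 and limma's voom called 0. Relative to the mean log2 CPM of these markers, the 1 day group differed from the ad libitum group by -0.04 log2 units in Gjb2, and by -0.37 where the markers were summed instead. Leaving out 1 library at a time gave -0.18 to 0.16 for the first of these. After 1 week 7 markers had a positive and 4 a negative log2 fold change, with a median of 0.11 and 0 called or with an unadjusted p under 0.05. Relative to the markers Gjb2 then differed by -0.62 log2 units from the ad libitum group, or by -0.75 with summed markers, and these groups did not overlap. Its difference between 1 week and 1 day was -0.58, also with no overlap. The part of these cells in the level of Gjb2 was not tested.

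**Figure D2:**
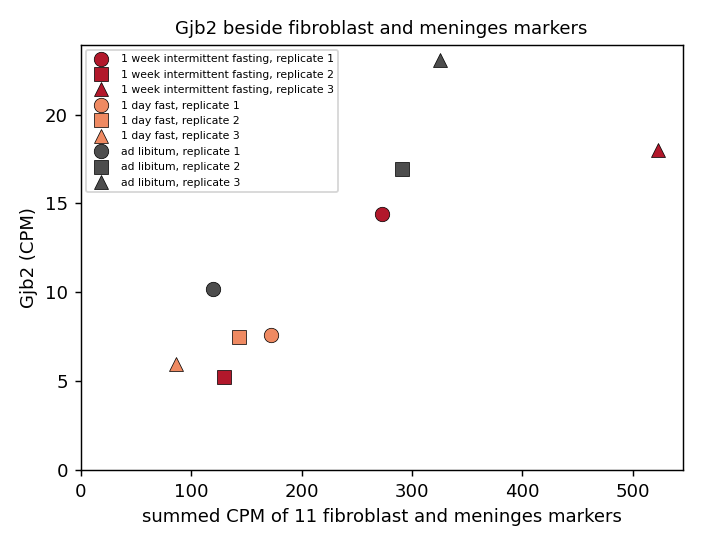
Gjb2 in CPM (vertical axis) against the summed CPM of 11 fibroblast and meninges markers (horizontal axis) in each of the 9 libraries, coloured by group with a symbol for the replicate. The 4 libraries lowest in Gjb2, 3 of 1 day and replicate 2 of 1 week, all had a marker sum of at most 172 CPM.

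Gjb1, the oligodendrocyte connexin Cx32, was lower in every fasted library than in any ad libitum library. It was at 29.5, 23.4 and 26.5 CPM in the 1 week libraries, at 29.3, 29.3 and 21.6 CPM in the 1 day libraries and at 38.0, 41.0 and 47.9 CPM in the ad libitum libraries. The 2 fasted groups overlapped each other, with a log2 fold change of -0.02 (SE 0.15) between 1 week and 1 day. Means were 26.5 ± 3.07 CPM after 1 week and 26.8 ± 4.46 CPM after 1 day, against 42.3 ± 5.04 CPM in the ad libitum group (SD, n = 3). The log2 fold change against the ad libitum group was -0.68 (SE 0.15) after 1 week and -0.66 (SE 0.15) after 1 day. Without both libraries that stood apart the values were -0.59 and -0.73.

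Gjc3, whose product Cx29 is found in the same cells, was at 124, 117 and 101 CPM in the 1 week libraries, at 115, 175 and 103 CPM in the 1 day libraries and at 131, 122 and 151 CPM in the ad libitum libraries. The groups overlapped, and 1 day replicate 2 was again the highest. The log2 fold change against the ad libitum group was -0.24 (SE 0.19) after 1 week and -0.04 (SE 0.19) after 1 day, and -0.25 and -0.30 without both libraries that stood apart. For every 100 CPM of Gjc3, Gjb1 had 23.8, 19.96 and 26.3 CPM in the 1 week libraries, 25.5, 16.7 and 20.9 in the 1 day libraries and 29.1, 33.6 and 31.8 in the ad libitum libraries, without length scaling. In this share too, every fasted library lay below every ad libitum library.

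**Figure D3:**
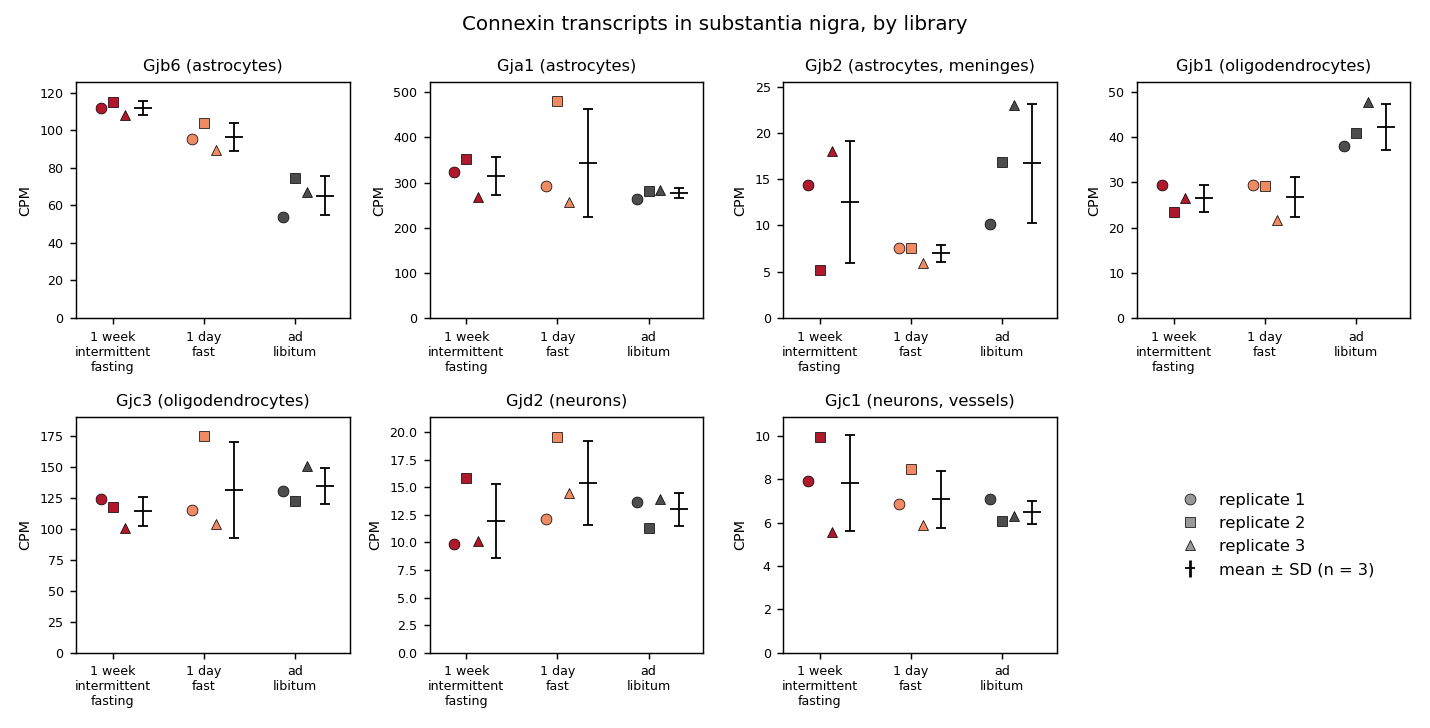
CPM of the 7 connexins in each library, with the 1 week, 1 day and ad libitum groups from left to right, a symbol for each replicate and the mean with SD of 3 libraries beside the points. Gjb6 is higher and Gjb1 lower in all 6 fasted libraries than in the 3 ad libitum libraries. Replicate 2 of 1 day is the highest of its group in Gjb6, Gja1, Gjc3, Gjd2 and Gjc1.

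The neuronal connexin Gjd2 was at 9.86, 15.8 and 10.1 CPM in the 1 week libraries, at 12.1, 19.6 and 14.5 CPM in the 1 day libraries and at 13.7, 11.3 and 13.97 CPM in the ad libitum libraries. Both fasted groups overlapped the ad libitum group and were highest in replicate 2. Its log2 fold change against the ad libitum group was -0.12 (SE 0.22) after 1 week and 0.24 (SE 0.22) after 1 day, and -0.37 and 0.03 without both libraries that stood apart. Gjc1 was at 7.95, 9.98 and 5.57 CPM in the 1 week libraries, at 6.88, 8.49 and 5.88 CPM in the 1 day libraries and at 7.09, 6.07 and 6.30 CPM in the ad libitum libraries. Its groups overlapped as well, with log2 fold changes of 0.27 (SE 0.22) after 1 week and 0.12 (SE 0.22) after 1 day. Without both libraries that stood apart these were 0.07 and -0.02, the second with its sign turned.

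Over the whole table edgeR's quasi-likelihood test, with Benjamini-Hochberg adjustment and a threshold of 0.05, called 63 of 20535 genes after 1 week, 0.307% of those tested, with 0.253% higher and 0.0536% lower. Of the 7 members, all of which passed the filter on low counts, 1 was called, Gjb6, which rose and whose call was known when the family was chosen. An unadjusted p under 0.05 was found for 2 members, Gjb6 and Gjb1, the 2 on whose changes the family was chosen. Over all genes the share was 11.2%. After 1 day 12 genes were called, 0.0584% of those tested, with 0.0536% higher and 0.00487% lower, and 0 of the 7 members, while 3 members, Gjb6, Gjb1 and Gjb2, had an unadjusted p under 0.05, as did 9.27% of all genes. The family was chosen on the first and second of these 3. DESeq2 called Gjb6 and Gjb1 among 187 genes over the whole table, and limma's voom called 0 members among 93 genes. The 5 members other than Gjb6 and Gjb1 had edgeR adjusted p between 0.689 and 0.883 after 1 week and between 0.484 and 0.954 after 1 day. Between 1 week and 1 day edgeR called 0% of all genes and 0 of the 7 members, whose adjusted p lay between 0.853 and 0.985. None of the members had an unadjusted p under 0.05 there, where 5.22% of all genes did, and DESeq2 and limma's voom called 0 members. The median log2 fold change of the members was -0.12 after 1 week and 0.12 after 1 day, against -0.0013 and 0.0004 over all genes, and 3 members were positive and 4 negative after 1 week, against 4 and 3 after 1 day.

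Groups did not overlap in 2 members after 1 week, Gjb6 higher and Gjb1 lower, where 22.4% of all genes did not overlap, 10.9% higher and 11.5% lower. After 1 day the groups did not overlap in 3 members, Gjb6 higher and Gjb1 and Gjb2 lower, where the shares over all genes were 18.5% in either direction, 8.18% higher and 10.3% lower. Between 1 week and 1 day Gjb6 alone of the members did not overlap, against 7.79% of all genes, 4.5% higher and 3.28% lower. The 2 comparisons share their ad libitum libraries. The call of Gjb6 after 1 week was made in 9 of the 18 fits run, the main one included. It was lost without each ad libitum library, without each 1 week library, without 1 day replicate 1 and without both libraries that stood apart, with log2 fold changes over all 18 fits between 0.66 and 0.89. Gjb1 after 1 week was called in 2 of the 18 fits, those of DESeq2 and of voom, and its log2 fold change lay between -0.76 and -0.57. Those 2 fits called 467 and 296 genes over the whole table.

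**Figure D4:**
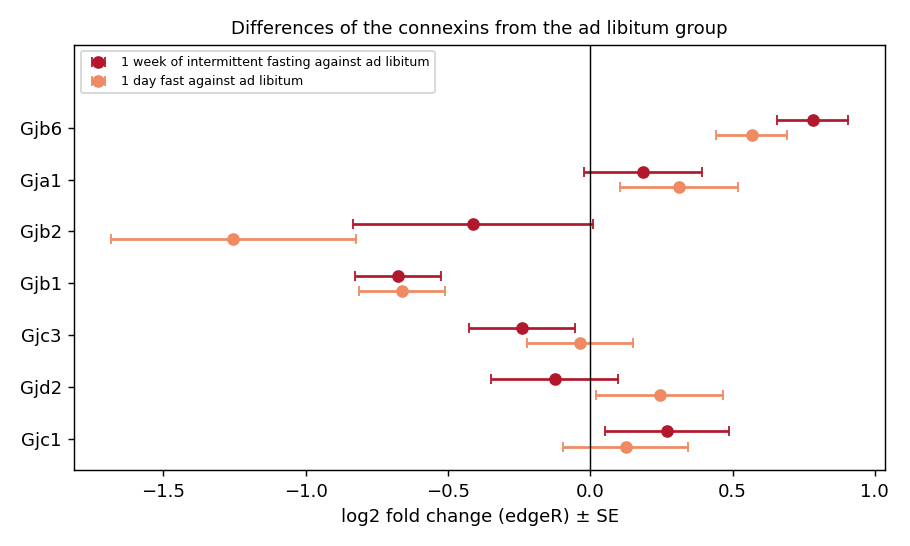
Log2 fold change against the ad libitum group (horizontal axis) with SE for each connexin, after 1 week (red) and after 1 day (orange), from edgeR's fit to all 9 libraries. Gjb6 lies right of 0 and Gjb1 left of 0 at both times, and Gjb2 has the widest error.

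Members were also set beside markers of the cells that are known to hold them, as log2 CPM less the mean log2 CPM of the markers. The 11 astrocyte markers, led by Slc1a2 and Aldoc, summed to 5269 to 5722 CPM in the 1 week group, 5199 to 5553 CPM in the 1 day group and 5187 to 5347 CPM in the ad libitum group. None of them passed edgeR's test in either comparison with the ad libitum group, with 1 and 2 at an unadjusted p under 0.05 after 1 week and 1 day and 0 called by DESeq2 or voom. Relative to them Gjb6 was at -1.29, -1.03 and -1.17 in the 1 week libraries, at -1.37, -1.24 and -1.40 in the 1 day libraries and at -2.17, -1.77 and -1.89 in the ad libitum libraries. Neither fasted group overlapped the ad libitum group, while the fasted groups overlapped each other. The difference from the ad libitum group was 0.79 log2 units after 1 week and 0.61 after 1 day. For Gja1 the same differences were 0.17 and 0.29, with overlapping groups. The markers moved both ways, with 5 positive and 6 negative log2 fold changes in each of these comparisons. What part the number of astrocytes had in the level of Gjb6 was not tested.

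Oligodendrocyte markers were lower in part. Of 12 markers, led by Mbp, 9 had a negative and 3 a positive log2 fold change after 1 week, and 10 and 2 after 1 day. Only Ugt8a, named after its value was seen, was called lower after 1 week, as were 0.0536% of all genes. Its enzyme makes a myelin galactolipid (log2 fold change -1.24, edgeR adjusted p = 0.0381). After 1 week 6 of the 12 had an unadjusted p under 0.05, against 11.2% of all genes. DESeq2 and voom each called 4 of the 12, and 467 and 296 genes over the whole table. None of the 12 passed edgeR's test after 1 day, when 6 had an unadjusted p under 0.05, against 9.27% of all genes. DESeq2 then called 3 of them and voom 2, where over the whole table they called 187 and 93 genes. Ugt8a was called in 11 of 18 fits. The replicate block ended its call, as did leaving out replicate 1 of 1 day, replicate 2 or 3 of 1 week or any ad libitum library. The median log2 fold change of the list was -0.35 after 1 week and -0.31 after 1 day, and the summed level was 11040.0 to 12430.0 CPM in the 1 week group, 10320.0 to 12310.0 CPM in the 1 day group and 11920.0 to 14460.0 CPM in the ad libitum group. Relative to the mean of these markers Gjb1 was lower by 0.24 log2 units after 1 week and by 0.28 after 1 day, and the fasted libraries did not overlap those of the ad libitum group. With the markers summed in place of averaged, these differences were -0.56 and -0.51. Gjc3 lay above the ad libitum group relative to the same markers, by 0.20 log2 units after 1 week and 0.31 after 1 day, and with summed markers these values were -0.12 and 0.09. Without 1 day replicate 2 the second was 0.12. What part the number of oligodendrocytes had in the level of Gjb1 was not tested.

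**Figure D5:**
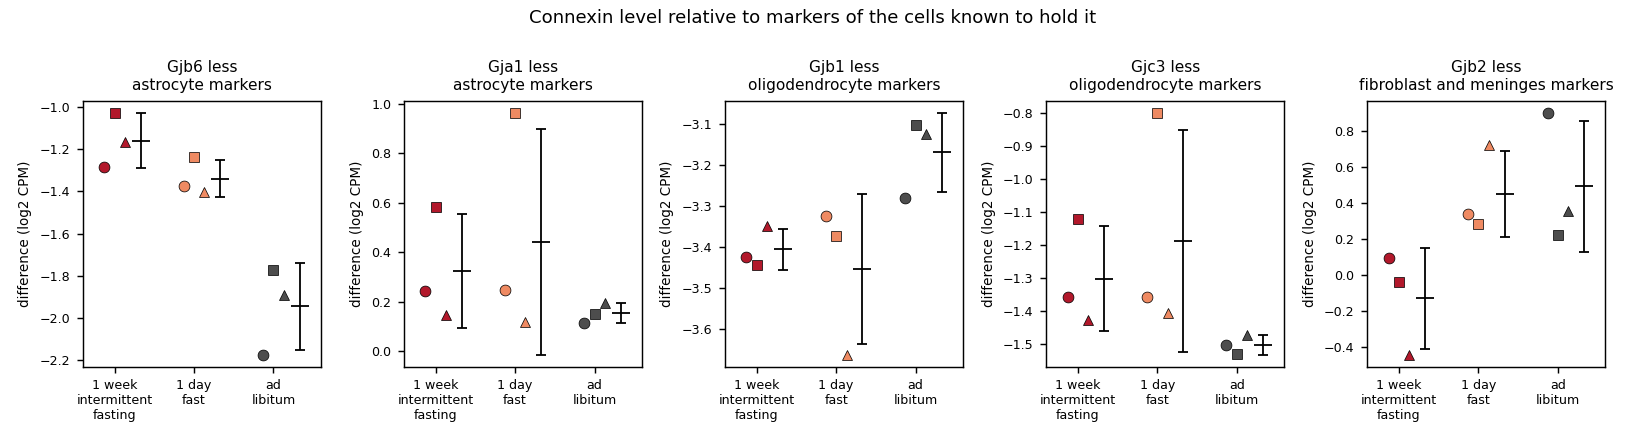
Log2 CPM of 5 connexins less the mean log2 CPM of the markers of the cell type named in each panel, by library in the 1 week, 1 day and ad libitum groups, with mean and SD of 3 libraries beside the points. Gjb6 relative to astrocyte markers is higher and Gjb1 relative to oligodendrocyte markers is lower in the fasted groups.

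Genes with the most similar pattern over the 9 libraries were found by the root mean square difference of centred log2 CPM among 13917 genes. A gene picked in this way shares the member's differences between groups because of the search, so its levels add no support. For Gjb6, whose own deviations had a root mean square of 0.36 log2 units, these were Tppp3, a tubulin-binding protein gene (difference 0.12), Eva1a, a gene linked to autophagy (0.13), and Dclre1b, which encodes a nuclease of telomeres (0.14). Tppp3 was at 105 ± 1.47 CPM after 1 week, 94.3 ± 9.67 CPM after 1 day and 66.7 ± 5.88 CPM in the ad libitum group (SD, n = 3). For Gjb1 the nearest was Mag, a myelin adhesion protein gene (0.09 against 0.36 for Gjb1 itself), at 295 ± 14.4 CPM after 1 week, 297 ± 27.2 CPM after 1 day and 443 ± 33.0 CPM in the ad libitum group. Mag is itself among the oligodendrocyte markers used above. Its log2 fold changes against the ad libitum group were -0.59 after 1 week and -0.58 after 1 day. Trim30a and Psmb9, a subunit of the immunoproteasome, came next at 0.10 and 0.11. For Gjb2 they were Efemp1, an extracellular matrix gene, Angptl2 and the chemokine gene Cxcl16, at 0.21 to 0.22 against 0.72 for Gjb2 itself. Gja1 was nearest to Iscu, Bmpr1b and Tsfm, and Gjc3 to Shtn1, Spg20 and Erbin. Gjd2 was nearest to Zranb2, Fam13b and Zfp711, and Gjc1 to genes that included Pcbd2 and Ccdc136.

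Of the other connexins and the pannexins, which form channels of similar shape but do not usually join cells, 7 genes are reported. None of the 7 passed edgeR's test in either comparison with the ad libitum group, none had an unadjusted p under 0.05 and DESeq2 and voom called 0. Panx2 had the highest level of these, at 43.3 ± 3.90 CPM per kb in the 1 week group, 41.1 ± 7.83 in the 1 day group and 47.4 ± 2.72 in the ad libitum group. Its log2 fold change against the ad libitum group was -0.13 (SE 0.14) after 1 week and -0.21 (SE 0.14) after 1 day. Panx1 was at 2.51 ± 0.386, 2.65 ± 0.216 and 2.59 ± 0.214 CPM per kb in the 1 week, 1 day and ad libitum groups. Gja4 (Cx37), a connexin of vessels, was at 2.43 ± 0.465, 1.92 ± 0.535 and 2.34 ± 0.504 CPM per kb in the same groups. Gja5, Gja6, Gjd3 and Gje1 were each at most at 1.11 CPM per kb in every library.

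Genes of proteins that bind, deliver or remove connexins were 16 in number, and 0 passed edgeR's test in either comparison with the ad libitum group. At an unadjusted p under 0.05 there were 1 after 1 week and 3 after 1 day, where the shares over all genes were 11.2% and 9.27%, DESeq2 and voom called 0, and the list's medians were -0.02 and -0.04 log2 units. Those with the smallest p after 1 week were Cav1, a caveolar protein gene (log2 fold change -0.50, SE 0.22), Tjp3 (-0.77, SE 0.36) and Tjp1 (-0.20, SE 0.10), scaffolds of cell junctions, and Ubqln4 (-0.21, SE 0.10), whose product is known to bind Cx43 on its way to the proteasome. Tjp1 encodes ZO-1, which binds Cx43 and Cx36, and was at 133 ± 7.66 CPM in the 1 week group and 153 ± 9.27 CPM in the ad libitum group.

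The astrocyte genes for potassium and water handling, glutamate uptake and end feet, which work with the astrocyte network, also had 0 of 13 past edgeR's test in either comparison. At an unadjusted p under 0.05 there were 3 after 1 week and 2 after 1 day, against 11.2% and 9.27% of all genes, DESeq2 and voom called 0, and the medians were 0.0032 and 0.004. Glul, glutamine synthetase of astrocytes, had the smallest p, at 2903 ± 416 CPM in the 1 week group and 3055 ± 682 CPM in the 1 day group, against 2025 ± 166 CPM in the ad libitum group. Its log2 fold changes were 0.52 (SE 0.17, edgeR adjusted p = 0.288) after 1 week and 0.59 (SE 0.17, edgeR adjusted p = 0.404) after 1 day. Neither fasted group overlapped the ad libitum group in Glul, where 10.9% and 8.18% of all genes were higher without overlap. Kcnj10, the potassium channel Kir4.1, had a log2 fold change of -0.34 (SE 0.12, edgeR adjusted p = 0.333) after 1 week, and Aqp4, the water channel, had one of -0.37 (SE 0.22). After 1 day Aqp4 was at 168 ± 37.3 CPM, against 241 ± 47.4 CPM in the ad libitum group (log2 fold change -0.52, SE 0.22, edgeR adjusted p = 0.53). These groups narrowly did not overlap, with 210.5 CPM in 1 day replicate 2, which stood apart, against at least 212 CPM. Kcnj10 had a log2 fold change of -0.12 (SE 0.12) after 1 day, and was lower without overlap in both comparisons. Of all genes 11.5% after 1 week and 10.3% after 1 day were lower without overlap.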

How the data were processed

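Per the labels' protocols, RNA of the substantia nigra was purified by RNeasy Lipid Tissue Mini columns and sequenced from directional NEBNext Ultra II libraries of polyA RNA. Salmon, DESeq2 1.40.2 and the builds GRCm39 and mm39 are named in the submitters' processing notes. For Salmon's version, the annotation and any row filter the sources used here give nothing. The deposited values are whole-number estimated counts per gene and library, not scaled to depth. Salmon divides reads between similar transcripts.

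Counts were scaled by TMM factors. Levels are CPM, and log2 CPM had a prior count of 2. filterByExpr (minimum count 10, minimum total 15) removed 56 rows and left 20535 genes. The edgeR 4.0.16 quasi-likelihood test with robust dispersions was fitted in R 4.3.3 to all 9 libraries, two-sided, with Benjamini-Hochberg adjustment and a threshold of 0.05. Each SE was derived from the F statistic. Depth was 36109995 to 54248856 counts a library. Among all pairs of libraries, none agreed within sampling noise (lowest chi-square per gene 26.5). Pairs with ad libitum replicate 2 had the highest values, 163.9 to 323.5, and this library had the lowest TMM factor, 0.898.

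The members and all gene lists were chosen with earlier results of these data known. Outside the 7 members, the genes named are all other measured connexins and pannexins, the 4 of each partner list with the smallest p after 1 week, and the 3 most similar in pattern to each member among genes of at least 1 CPM. Of the genes this gives, 3 are not reported here. Promoter windows and transcript lengths, matched by symbol and by identifier, are of build GRCm38, so no GRCm39 coordinates are printed. Scripts were tested on simulated data. Alternatives were DESeq2 1.42.0, limma 3.58.1 voom with quality weights, RLE factors, no filter, a filter of 1 CPM in 6 libraries, the 2 groups alone, a replicate block, and fits without 1 or 2 libraries. Same-numbered libraries did not deviate together in all pairs (r from -0.23 to 0.43), so the numbers were not taken as pairs.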

Additional observations from a re-analysis of the deposited data

How the results depend on the processing

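The direction of Gjb6 and Gjb1 against the ad libitum group was the same in all 18 fits of each comparison. This adds no support, because both were chosen on these differences. Their groups did not overlap, so leaving out libraries could hardly turn the direction. The number of genes called after 1 week was 467 with DESeq2, 296 with voom, 155 with the 2 groups alone and 32 with the replicate block, and 8 to 121 when 1 library was left out, against 63. After 1 day it was 187 with DESeq2, 93 with voom, 26 with the 2 groups alone, 2 with the replicate block and 50 without both libraries that stood apart, and 0 to 22 when 1 library was left out, against 12. Between 1 week and 1 day DESeq2 called 3 genes, leaving out 1 library gave 0 to 3, and edgeR called 0, with 1071 genes at an unadjusted p under 0.05. The number of members called after 1 week was 2 with DESeq2 and with voom, 0 with the replicate block and without both libraries that stood apart, and 0 to 1 when 1 library was left out. After 1 day it was 2 with DESeq2, and 0 to 0 when 1 library was left out. The cause of these moves was not tested.

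Under the replicate block the log2 fold change of Gjb6 after 1 week was 0.79, and Gjb6 was not called. Gjb2, at 192 counts in its lowest library, had the widest error of the members.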
